A study of Mus musculus with 12 samples.

Results

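Dlx1, Dlx2, Dlx3, Dlx5, Msx1, Msx2, Pitx1, Pax9 and Prrx1 are transcription factor genes best known from the developing face, jaw and teeth. They were taken from the deposited expression table by gene symbol, which found all 9 genes among 55401. They are followed here across 12 RNA sequencing libraries of mouse oral tumours. The labels describe C57BL/6 mice that carried orthotopic tumours of MTC-Q1, an oral cancer cell line, and were treated once tumours had grown to 100 mm3. The study's methods describe a luciferase-expressing subline of these cells and injection into the cheek lining. The 4 groups of 3 libraries received control IgG (Ctrl-IgG), an antibody to the macrophage growth factor receptor CSF1R (aCSF1R), interleukin-10 carried on an Fc fragment (IL-10-Fc), or BF10, which joins interleukin-10 to the CSF1R antibody. All groups share the cell line and the strain in the labels. The series design speaks of 4 doses, whereas the treatment protocol speaks of 6. No label says which libraries came from separate animals, so p-values measure the spread between libraries, which may be in part technical.

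Dlx and Msx genes encode homeodomain proteins that pattern the branchial arches, the embryonic swellings that form the jaws, and they act with BMP, FGF, endothelin and hedgehog signals between epithelium and neural crest mesenchyme. Pitx1 marks the oral epithelium and lower jaw, Pax9 is needed for tooth and palate formation, and Prrx1 is a broad marker of connective tissue progenitors. None of these genes is restricted to the face. Pitx1 also specifies the hindlimb, Dlx3 acts in epidermis and hair, and Msx1, Msx2, Dlx5 and Prrx1 are expressed in limb buds. Pax9 belongs to the paired-box family and lacks a homeodomain, so the term homeobox gene does not strictly cover it. The most anterior arch tissue is known for the absence of Hox expression, which is why Hox genes are given beside the 9 genes.

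Dlx1 lies at chr2:71528113-71533981 on the plus strand and Dlx2 at chr2:71543408-71546754 on the minus strand, as neighbours in the GENCODE annotation of GRCm38. Pax9 lies at chr12:56691767-56712822 on the plus strand, Msx1 at chr5:37820485-37824583 on the minus strand, Pitx1 at chr13:55825051-55836192 on the minus strand and Prrx1 at chr1:163245119-163313710 on the minus strand. Dlx3 is at chr11:95120119-95125296 on the plus strand, Dlx5 at chr6:6877805-6882085 on the minus strand and Msx2 at chr13:53466884-53473074 on the minus strand. All are protein-coding. The FPKM values (fragments scaled to transcript length and to the size of the library) cover whole genes, so exons or isoforms are not resolved.

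The 250 bases before the RefSeq start (GRCm38.p6) are shown for Pax9 and Dlx2, the genes with the lowest levels in IL-10-Fc and BF10 libraries relative to the others, and for Msx1, which was measured in every library. Capitals mark a CCAAT box (CCAAT or its complement ATTGG) or a GC box (GGGCGG or its complement CCGCCC), searched on both strands. The windows are chr12:56695221-56695470 on the plus strand for Pax9, chr2:71546755-71547004 on the minus strand for Dlx2 and chr5:37824586-37824835 on the minus strand for Msx1.
Pax9: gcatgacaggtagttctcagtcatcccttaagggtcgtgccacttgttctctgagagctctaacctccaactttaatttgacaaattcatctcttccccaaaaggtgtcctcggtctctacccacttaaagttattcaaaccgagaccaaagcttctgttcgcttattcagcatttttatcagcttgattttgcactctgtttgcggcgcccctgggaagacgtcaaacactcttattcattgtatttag
Dlx2: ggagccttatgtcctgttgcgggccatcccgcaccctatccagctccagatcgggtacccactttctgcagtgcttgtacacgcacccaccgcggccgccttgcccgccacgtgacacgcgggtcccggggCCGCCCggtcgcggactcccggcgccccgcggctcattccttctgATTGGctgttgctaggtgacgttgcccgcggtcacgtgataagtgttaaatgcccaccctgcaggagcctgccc
Msx1: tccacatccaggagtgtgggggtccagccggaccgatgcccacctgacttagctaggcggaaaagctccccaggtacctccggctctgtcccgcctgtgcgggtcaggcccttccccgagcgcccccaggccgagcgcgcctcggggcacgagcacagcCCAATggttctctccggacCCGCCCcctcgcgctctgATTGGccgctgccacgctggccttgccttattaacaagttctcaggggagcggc
The Pax9 window was 43.6% GC with 7 CpG dinucleotides, against 66.4% and 24 for Dlx2 and 68.0% and 20 for Msx1. The medians over 32851 mouse promoters of this length were 52.4% and 6. RefSeq windows were found for 6 of the 9 genes, the others being Prrx1, Dlx1 and Msx2, while Dlx3, Dlx5 and Pitx1 had no entry. In GENCODE, all 250 bases of the Dlx1 and Msx2 windows and 60 of the Prrx1 window lie in exons of the gene, and the Pax9 window lies in an intron of a longer transcript. A CCAAT box stood in 3 of the 6 windows (Dlx2, Msx1 and Msx2) and in 33.8% of all promoters. The GC box stood in the windows of the same genes and in 32.7% of all promoters. The homeodomain core TAATTA stood in 2 windows (Prrx1 and Msx2) and in 4.84% of all promoters. Pax9 held none of these letters in this window.

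The 12 libraries fell into 2 sides before any of the 9 genes was considered, with Ctrl-IgG and aCSF1R on one side and IL-10-Fc and BF10 on the other. H2-Ea, an MHC class II gene that C57BL/6 mice are known not to transcribe, measured 0.04 to 0.27 FPKM in the 6 libraries labelled Ctrl-IgG or aCSF1R and 553 to 1727 FPKM in the 6 labelled IL-10-Fc or BF10. The latter values go against the strain in the labels. Xist, transcribed from the inactive X chromosome of female cells, measured 0.01 to 0.04 FPKM on the first side and 17.1 to 30.7 on the second. The Y-linked Eif2s3y was at 4.23 to 11.3 FPKM on the first side and at 0 to 0.05 in 5 libraries of the second, with 3.29 in BF10 replicate 3. Of 13 simple epithelium markers, 6 reached 1 FPKM on the first side, with sums of 3.94 to 28.8 FPKM, and 12 on the second, with sums of 625 to 1645. The study's methods also describe another tumour model, in which BALB/c mice carrying breast cancer cells received the same treatments, and BALB/c mice are known to transcribe H2-Ea. From which model each library came was not tested. A difference between treatments with and without IL-10 cannot be told apart from a difference in the mice or cells behind the libraries, and every comparison across the sides below carries this limit. In bulk tissue, fewer cells of a type and less RNA per cell cannot be told apart either.

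The labels call the cells oral cancer, yet markers of stratified keratinocytes were high in only 3 libraries. The summed FPKM of 22 keratinocyte markers was 2972 in Ctrl-IgG replicate 3, 1910 in aCSF1R replicate 1 and 3012 in aCSF1R replicate 2. It was 14.8 to 20.7 in the other 3 libraries of that side and 30.3 to 66.9 on the side that holds IL-10-Fc and BF10. The same 3 libraries had the highest sums of 12 skeletal muscle markers, at 730 to 1215 FPKM against 22.7 to 148 elsewhere. Sums on the first and second side were 60.3 to 211 and 353 to 1975 FPKM for 8 leukocyte markers, 42.7 to 64.4 and 40.6 to 591 for 7 adipocyte markers, and 13.7 to 20.2 and 37.8 to 68.1 for 11 mammary luminal markers. Much of the leukocyte sum was S100a8, with means of 88.9 and 756 FPKM, whereas Ptprc had 21.7 and 38.3. Of 6 tested leukocyte markers, limma called only these 2 higher across the sides, where 14.6% of all genes were called higher. Of the markers in these lists, the milk genes Csn2 and Wap were listed at 0 throughout the first side and Wap throughout the second. Krt5, the basal keratinocyte keratin, measured 0.04 and 0 FPKM in Ctrl-IgG replicates 1 and 2 and 0 in aCSF1R replicate 3. The FPKM sum over all genes ranged from 637596 to 976950, and the 4 highest sums belonged to IL-10-Fc replicates 1 and 2, BF10 replicate 1 and Ctrl-IgG replicate 2, in which the mitochondrial share was 6.57% to 9.04%, whereas the other libraries had 2.99% to 3.61%. Calls that changed without these libraries are given below.

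The 6 tested genes of the 9 fell into a pair that was near 0 in IL-10-Fc and BF10 libraries (Pax9 and Dlx2), a group that was lower by about the same amount there (Msx1, Pitx1 and Dlx1) and Prrx1, which was not called lower. Dlx3, Dlx5 and Msx2 did not reach 1 FPKM in at least 3 libraries and were not tested. Pax9 and Dlx2 reached 1 FPKM in no IL-10-Fc or BF10 library and so entered the test only through the groups where they were high. In limma on log2(FPKM + 1), with IL-10-Fc and BF10 set against Ctrl-IgG and aCSF1R and p adjusted over 15813 genes, 5 of the 6 passed both limits for a lower call (adjusted p under 0.05 and at least a 1.5-fold change), and 0 for a higher one. Of all genes tested, 28.6% (4523) were called lower and 14.6% (2309) higher in the same contrast, and median-of-ratios scaling between libraries gave 3215 lower and 3262 higher. The median log2 change was -0.995 over the 6 and -0.30 over all genes. The count is given as a description, because the filter fixed part of it.

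**Figure D1:**
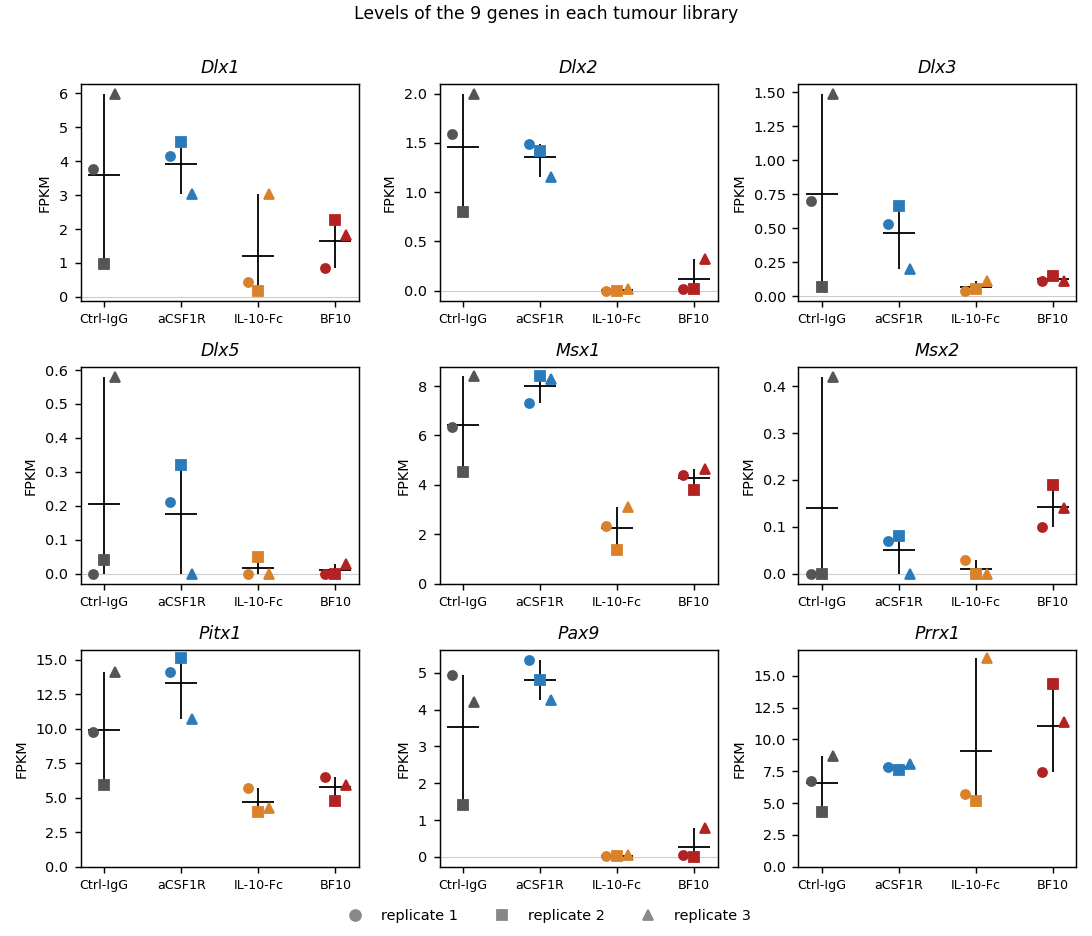
FPKM (vertical axes, each gene on its own linear scale) of the 9 genes in the 12 libraries, by treatment group; symbols are the 3 replicates, horizontal marks the means and vertical lines the range. Pax9 and Dlx2 lie near 0 in IL-10-Fc and BF10, Msx1 and Pitx1 are lower there, and Prrx1 is not.

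Pax9, the tooth and palate gene, measured 4.94, 1.40 and 4.21 FPKM in the Ctrl-IgG libraries (replicates 1 to 3, an order kept below). The aCSF1R libraries had 5.35, 4.81 and 4.26 FPKM. In contrast, IL-10-Fc had 0.02, 0.01 and 0.04 FPKM, whereas BF10 had 0.05, 0 and 0.77. All 6 libraries of these groups lay below the other 6, which held for 17.6% of all genes tested. On the log2(FPKM + 1) scale Pax9 fell by 2.14 (SE 0.24, limma adjusted p = 4.01e-05). It was called in every alternative run for this contrast, with log2 changes from -4.54 to -1.97 and adjusted p from 4.67e-06 to 0.00453. The ratio of mean FPKM was 28.1, which the log2(FPKM + 1) scale understates because Pax9 is near 0 on one side.

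Dlx2, which acts with Dlx1 in the upper and lower jaw arches, was at 1.59, 0.80 and 2.00 FPKM in Ctrl-IgG and 1.49, 1.42 and 1.15 in aCSF1R. It was listed at 0, 0 and 0.02 FPKM in IL-10-Fc, whereas BF10 had 0.02, 0.02 and 0.32. The sides did not overlap, as for Pax9, and the other 7 genes did not separate the 12 libraries in this way. Dlx2 fell by 1.17 on the log2(FPKM + 1) scale (SE 0.15, limma adjusted p = 9.15e-05) and was called in all 21 alternatives.

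BF10 replicate 3 stood apart for both genes. Its Pax9 was 18.5% and its Dlx2 22.7% of the mean of the 6 Ctrl-IgG and aCSF1R libraries, where the other 5 IL-10-Fc and BF10 libraries averaged 0.577% and 0.852%. Other transcripts typical of the first side were raised in the same library: Eif2s3y stood at 44.9% of that mean, the muscle actin gene Acta1 at 22.5%, Hoxd13 at 17.1%, Hoxa11 at 17.0% and Alx1 at 10.2%. Their part in the Pax9 and Dlx2 values was not tested. Without BF10 replicate 3 both genes were still called.

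Msx1, a target of BMP signalling in tooth and palate mesenchyme, measured 6.35, 4.52 and 8.39 FPKM in Ctrl-IgG and 7.33, 8.42 and 8.28 in aCSF1R. IL-10-Fc libraries had 2.33, 1.37 and 3.10 FPKM, whereas BF10 libraries had 4.40, 3.78 and 4.65. The sides overlapped through a single library, Ctrl-IgG replicate 2, at 4.52 FPKM under the 4.65 of BF10 replicate 3. The log2 change was -0.98 (SE 0.19, limma adjusted p = 0.00151). Pitx1, the gene of oral epithelium and hindlimb, measured 9.76, 5.89 and 14.1 FPKM in Ctrl-IgG and 14.1, 15.2 and 10.7 in aCSF1R. IL-10-Fc libraries had 5.73, 3.98 and 4.27 FPKM, whereas BF10 libraries had 6.54, 4.74 and 5.96, so that again only Ctrl-IgG replicate 2 lay within the range of the other side. Its log2 change was -0.99 (SE 0.21, limma adjusted p = 0.00287).

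Dlx1 was more variable than Dlx2, its neighbour on the chromosome. It measured 3.78, 0.97 and 5.99 FPKM in Ctrl-IgG, 4.14, 4.58 and 3.04 in aCSF1R, then 0.43, 0.18 and 3.03 (IL-10-Fc), with 0.86, 2.27 and 1.83 for BF10. Its log2 change of -1.004 (SE 0.37) had a limma adjusted p of 0.0443, and the call was lost in 14 of 21 alternatives. Among these were the fits that left out any single library other than Ctrl-IgG replicate 2 or IL-10-Fc replicate 3, where the adjusted p was 0.0519 to 0.104. Dlx1as, a non-coding gene on the opposite strand that spans Dlx1, measured 0.80 to 1.51 FPKM in Ctrl-IgG and aCSF1R and 0.12 to 1.05 in IL-10-Fc and BF10. Its log2 change of -0.48 (limma adjusted p = 0.0312) stayed under the fold limit. The library kit keeps strand, but whether the counting used it is not stated, so reads of the pair may be mixed.

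Prrx1 did not follow the others. It measured 6.74, 4.28 and 8.67 FPKM in Ctrl-IgG, 7.81, 7.57 and 8.10 in aCSF1R, then 5.71, 5.15 and 16.4 (IL-10-Fc), with 7.45, 14.3 and 11.3 for BF10. The sides overlapped, and the log2 change of 0.35 (SE 0.28, 95% interval -0.28 to 0.97, limma adjusted p = 0.329) was not called. Under median-of-ratios scaling, which moved the median change of all genes from -0.30 to -0.01, Prrx1 was called higher at a log2 change of 0.66 (limma adjusted p = 0.0117), while Msx1, Pitx1 and Dlx1 stayed lower at -0.70, -0.66 and -0.83. It was also called higher under quantile normalization (0.65) and without the 4 libraries of highest FPKM sum (0.82). The latter setting leaves only replicate 3 (16.4 FPKM) of the IL-10-Fc group. Fibroblast markers, which include collagens, moved with the sides, as 9 of 12 were called higher and 1 lower in IL-10-Fc and BF10. Of all genes tested, 14.6% were called higher and 28.6% lower. The marker sums were 2020 to 2945 FPKM against 242 to 854, and the part of these markers in the Prrx1 level was not tested.

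Prrx1 thus took a larger share of the summed FPKM of the 9 genes in IL-10-Fc and BF10 libraries, at 38.15% to 60.8%, than in the others, at 17.6% to 23.8%. The summed level of the other 8 genes was 13.7 to 37.2 FPKM in Ctrl-IgG and aCSF1R and 5.64 to 13.8 in IL-10-Fc and BF10. The ranges overlapped only through Ctrl-IgG replicate 2 at 13.7 and BF10 replicate 3 at 13.8. Ctrl-IgG replicate 2 was the lowest library of its group for 7 of the 9 genes.

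Msx1, Pitx1 and Dlx1 were not called without the 3 keratinocyte-rich libraries. In this fit, a setting chosen after seeing the data that leaves 2 Ctrl-IgG libraries and 1 aCSF1R library, 2 of the 6 tested genes (Pax9 and Dlx2) were called, and the share of all genes called lower was 13.6%, against 28.6% with all libraries. The limma log2 change was -0.91 for Msx1 (adjusted p = 0.0528), -0.71 for Pitx1 (adjusted p = 0.109) and -0.67 for Dlx1 (adjusted p = 0.361). Pitx1 measured 14.1, 14.1 and 15.2 FPKM in the keratinocyte-rich libraries and 5.89 to 10.7 in the other 3 of that side. Whether Pitx1 came from keratinocytes or muscle there was not tested. In single pairs of groups, the same setting left 1 aCSF1R library, assumed to vary like the other groups. For BF10 against aCSF1R it ended the calls for Pax9 (-2.10, limma adjusted p = 0.0600), Dlx2 (-0.95, adjusted p = 0.0704) and Pitx1, where 2.4% of all genes were called lower. It also ended the Msx1 and Pitx1 calls for IL-10-Fc against aCSF1R (-1.54 and -1.06) and against Ctrl-IgG (-0.999 and -0.62). In the latter pair 11.2% of all genes were called lower.

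**Figure D2:**
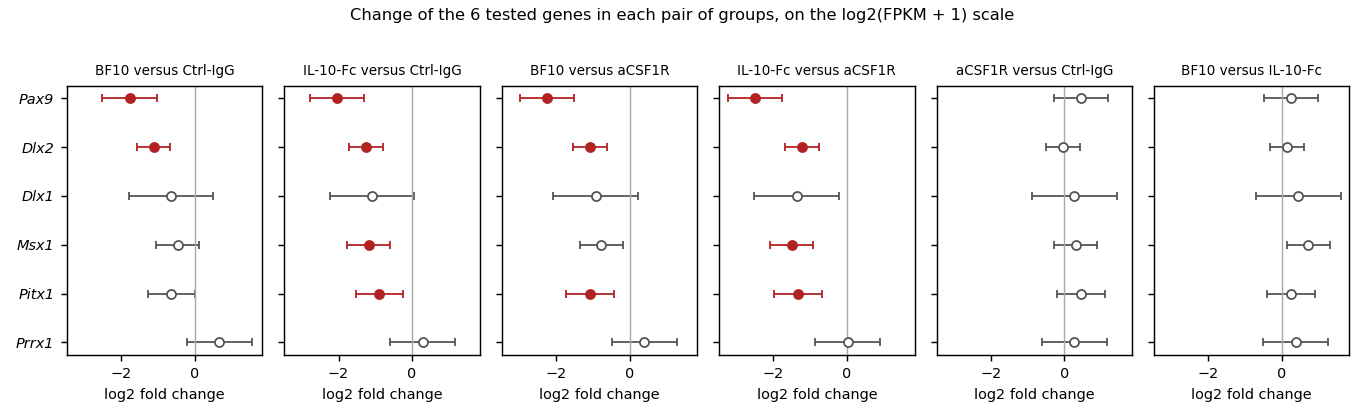
Log2 fold change on the log2(FPKM + 1) scale (horizontal axes, each pair of groups a panel) of the 6 tested genes; points are limma estimates, bars their 95% intervals, and filled red points mark calls. Pax9 and Dlx2 are called in the 4 panels across the sides, and no gene is called in the 2 panels within a side.

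The treatment groups were also compared in single pairs, which share libraries, so their values are given side by side. For BF10 against Ctrl-IgG, 2 of the 6 tested genes were called lower, where 13.2% of all genes were. Both, Pax9 and Dlx2, entered the test only through Ctrl-IgG and aCSF1R libraries. The filter thus fixed part of the counts in every pair across the sides, and these are given as a description. Pax9 fell by 1.77 (SE 0.33, limma adjusted p = 0.00314) and Dlx2 by 1.12 (SE 0.21, limma adjusted p = 0.00285). Without the 4 libraries of highest FPKM sum all 6 were called in this pair, Prrx1 higher (0.67) and Msx1, Pitx1 and Dlx1 lower (-0.68, -1.01 and -0.93), and of all genes 21.6% were called lower and 18.8% higher. Prrx1 was also called higher under quantile normalization (0.66), where 14.1% of all genes were called higher. Without Ctrl-IgG replicate 2 alone, Pitx1 was added at a log2 change of -0.93 (limma adjusted p = 0.0338), with 12.2% of all genes called lower.

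IL-10-Fc against Ctrl-IgG gave 4 calls among the 6 genes, where 23.6% of all genes were called lower. Pax9 fell by 2.04, Dlx2 by 1.26 and Msx1 by 1.19, with limma adjusted p of 0.00106, 0.00108 and 0.00600. Pitx1 fell by 0.89 (SE 0.30, limma adjusted p = 0.0389), a call that was lost without Ctrl-IgG replicate 1 or 3 or any 1 of the IL-10-Fc replicates (adjusted p 0.0526 to 0.149), and under median-of-ratios scaling (-0.43). Without Ctrl-IgG replicate 2 or IL-10-Fc replicate 3, Dlx1 was called as well, at -1.61 and -1.64. These fits called 27.2% and 37.6% of all genes lower. With the compared groups fitted alone, 2 genes were called, Pax9 and Dlx2, and 11.5% of all genes were called lower. Prrx1 was called higher in this pair under median-of-ratios scaling (0.74) and quantile normalization (0.72). These fits called 16.4% and 15.6% of all genes higher. Leaving out the 4 libraries of highest FPKM sum kept only replicate 3 of IL-10-Fc, which had the highest Prrx1 level of all libraries (16.4 FPKM). In that fit Prrx1 was higher by 1.01.

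BF10 against aCSF1R gave 3 calls, where 14% of all genes were called lower: Pax9 fell by 2.24, Pitx1 by 1.08 and Dlx2 by 1.08, with limma adjusted p of 0.000838, 0.0211 and 0.00342. The Pitx1 call was lost without aCSF1R replicate 1 or 2 or BF10 replicate 2 (adjusted p 0.0773 to 0.0827). Msx1 was not called, at -0.77 (limma adjusted p = 0.0543), nor was Dlx1, at -0.92 (limma adjusted p = 0.227). With a covariate for the first number of the sample titles (1 to 4 against 5 to 7), Msx1 was called at -0.87 (limma adjusted p = 0.0212). Without the 4 libraries of highest FPKM sum, Dlx1 (-0.68) and Msx1 (-0.79) were called lower and Prrx1 higher (0.64), where 21.7% of all genes were called lower and 18.9% higher. Fitting only these 2 groups added Msx1 and Dlx1, with 18.7% of all genes called lower. Under quantile normalization Msx1 was called (limma adjusted p = 0.0475) and Pitx1 was not (adjusted p = 0.0504), with 15.1% of all genes called lower. IL-10-Fc against aCSF1R gave 4 calls, where 31.2% of all genes were called lower. Pax9 fell by 2.50, Msx1 by 1.497, Pitx1 by 1.34 and Dlx2 by 1.22, with limma adjusted p of 0.000303, 0.00156, 0.00518 and 0.00123, and Dlx1, at -1.36, was not called (adjusted p of 0.0558). Dlx1 was called with the covariate for the title number (limma adjusted p = 0.0220) and with a pseudocount of 0.1 (limma adjusted p = 0.0463). These fits called 38.4% and 31.7% of all genes lower. Prrx1 was called higher under quantile normalization (0.65), where 17.9% of all genes were called higher. Without the 4 libraries of highest FPKM sum, which left only replicate 3 of IL-10-Fc, Prrx1 was higher by 0.98. Without IL-10-Fc replicate 3, Dlx1 was called in this pair at -1.91, where 45.1% of all genes were called lower. The Pitx1 call in this pair was lost under median-of-ratios scaling (-0.77, limma adjusted p = 0.0620) and under quantile normalization (-0.71, adjusted p = 0.0983).

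Within the sides the tests made no call among the 6 tested genes. For aCSF1R against Ctrl-IgG, limma called 0% of all genes, 437 passed an unadjusted p under 0.05, and none of these was among the 6. The largest estimate was that of Pax9, at 0.46 with a 95% interval of -0.27 to 1.20, and Pitx1 was at 0.45 with an interval of -0.20 to 1.10. For BF10 against IL-10-Fc, 0.0126% of all genes (2 genes) were called, and 828 had an unadjusted p under 0.05. Msx1 was among the latter, at a log2 difference of 0.72 with an interval of 0.14 to 1.31 and a limma adjusted p of 0.478. The BF10 range for Msx1, 3.78 to 4.65 FPKM, lay above the IL-10-Fc range of 1.37 to 3.10. The share of all genes that separate in this way was not counted. The median log2 difference of all genes in this pair was 0.34, and median-of-ratios scaling brought it to 0.04 and Msx1 to 0.42 (limma adjusted p = 0.623). The 4 libraries of highest FPKM sum include 2 of the 3 IL-10-Fc libraries and 1 of the 3 BF10 libraries. The interaction term, which asks whether BF10 differs from its components added together, was called for 0.00632% of all genes (1 gene, with 412 at an unadjusted p under 0.05) and for none of the 6, whose intervals reached from -1.46 to 1.81 at their widest, for Dlx1.

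By mean FPKM, a scale per length, Pitx1 led in Ctrl-IgG (9.92 ± 4.12, SD, n = 3) and aCSF1R (13.3 ± 2.33, SD, n = 3). In Ctrl-IgG every neighbour in the order of the 9 overlapped. In aCSF1R Pitx1 stood above Msx1 (8.01 ± 0.593, SD, n = 3) and Prrx1 (7.83 ± 0.265, SD, n = 3), which overlapped, and both stood above Pax9 (4.81 ± 0.545, SD, n = 3). Pax9 and Dlx1 overlapped, and Dlx2 stood apart from Dlx1 above and Dlx3 below. Prrx1 led in IL-10-Fc (9.09 ± 6.35, SD, n = 3), where it overlapped Pitx1 (4.66 ± 0.938, SD, n = 3), and in BF10 (11.04 ± 3.45, SD, n = 3), where Pitx1 (5.75 ± 0.919, SD, n = 3) and Msx1 (4.28 ± 0.448, SD, n = 3) followed without overlap. From the fifth place down, every neighbour overlapped in both of these groups.

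The remaining 3 genes were low throughout. Dlx3, the epidermal and placental member of its family, measured 0.70, 0.07 and 1.49 FPKM in Ctrl-IgG and 0.53, 0.66 and 0.20 in aCSF1R. IL-10-Fc had 0.04, 0.05 and 0.11 FPKM, whereas BF10 had 0.11, 0.15 and 0.11, with Ctrl-IgG replicate 2 again inside the range of the other side. When the filter was dropped, its log2 change was -0.50 (limma adjusted p = 0.0615). Dlx5, a driver of bone formation in the lower jaw, was listed at 0, 0.04 and 0.58 FPKM in Ctrl-IgG and 0.21, 0.32 and 0 in aCSF1R. All IL-10-Fc and BF10 libraries had 0 to 0.05. Msx2 was listed at 0, 0 and 0.42 FPKM in Ctrl-IgG, 0.07, 0.08 and 0 in aCSF1R, then 0.03, 0 and 0 (IL-10-Fc), with 0.10, 0.19 and 0.14 for BF10. At such levels an exact 0 may be a failed estimate, and the number of reads behind these values is unknown.

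The highest Dlx5 values belonged to the 3 keratinocyte-rich libraries, and Dlx3 and Msx2 were highest in 1 of them, Ctrl-IgG replicate 3. Keratinocyte and muscle markers rise together in these libraries, and the part of either in these genes was not tested.

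**Figure D3:**
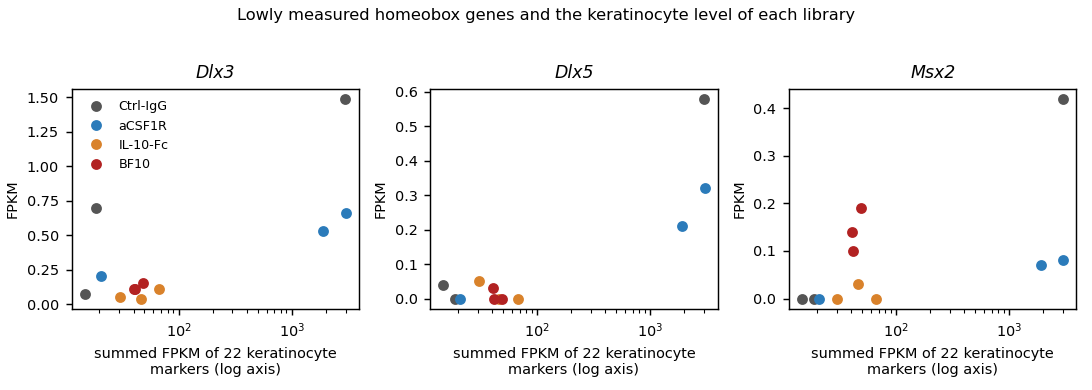
FPKM of Dlx3, Dlx5 and Msx2 (vertical axes, 1 gene a panel) against the summed FPKM of 22 keratinocyte markers (horizontal log axis); each point is a library, coloured by treatment group. Dlx5 is highest in the 3 libraries at the right, with sums of 1910 to 3012, while Msx2 is also above 0 in all BF10 libraries.

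Among 6 close relatives, 2 passed the filter and 0 were called across the sides in limma, with unadjusted p of 0.159 for Dlx4 and 0.551 for Prrx2. In this contrast 28.6% of all genes were called lower and 14.6% higher, so 0 calls among 2 genes says little. Dlx4 measured 1.08 to 3.84 FPKM in Ctrl-IgG and aCSF1R and 0.98 to 2.57 in IL-10-Fc and BF10. Prrx2, the partner of Prrx1 in limb and face mesenchyme, measured 2.63 to 7.95 and 3.31 to 6.27 FPKM. Msx3, a gene of the dorsal neural tube, was at 0.43 to 0.95 FPKM on the first side and 0 to 0.07 on the second, a separation without overlap at levels below the filter. Among genes that passed the filter, 17.6% were likewise lower in every library of the second side. Dlx6, Pitx3 and Pax1 stayed at or below 0.16 FPKM in all libraries.

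Genes whose pattern was most like each member over the 12 libraries were named by Pearson r of log2(FPKM + 1), as a description of libraries that share sides, depth and tissue. For Pax9 these were Foxf2 (r = 0.997), Pax3 (0.996) and Hoxa11 (0.995). For Dlx2 they were Slc22a7 (0.996), Peg10 (0.994) and Smad9 (0.994). Apart from BF10 replicate 3, libraries of the second side held at most 0.18 FPKM of each of these 6 genes. For Msx1 they were Sys1 (0.987), Ddx28 (0.978) and Mtfr1l (0.975), for Dlx1 Pard6b (0.985), Zswim4 (0.981) and Pacsin3 (0.979), and for Prrx1 P2ry2 (0.987), Srpr (0.980) and the matrix gene Sparc (0.971). Pitx1 was most like Pla2g2e (0.961), the muscle gene Mylk2 (0.958) and Camk2b (0.958). Between members, Pax9 and Dlx2 had an r of 0.980 over the 12 libraries and 0.931 after subtraction of group means, and Dlx1 and Prrx1 had 0.449 and 0.931. These values rest on few libraries and on the extremes named above, Ctrl-IgG replicate 2 and BF10 replicate 3 among them.

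The other facial and arch transcription factors moved mostly with Pax9 and Dlx2. Of 39 such genes, 27 were tested, and limma called 15 lower and 1 higher in IL-10-Fc and BF10. Of all genes tested, 28.6% were called lower and 14.6% higher. The median log2 change was -0.85 beside -0.30 over all genes. Alx1, needed for closure of the face in the midline, measured 10.6 to 18.3 FPKM in Ctrl-IgG and aCSF1R and 0 to 1.36 in IL-10-Fc and BF10. Foxf1, a hedgehog-responsive mesenchymal factor, measured 17.3 to 32.6 FPKM on the first side and 1.01 to 6.12 on the second. Osr1, from the odd-skipped family, measured 5.50 to 20.4 and 0.25 to 3.2 FPKM. Their log2 changes were -3.52, -3.16 and -3.01, with limma adjusted p of 9.75e-07, 5.22e-06 and 2.45e-05. Apart from BF10 replicate 3, Alx1 stayed at or below 0.5 FPKM in IL-10-Fc and BF10. It thus entered the test only through the other side, and the filter fixed part of the count of this list.

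Hox genes were measured on both sides, some higher on the first side and some on the second. Whether the 9 genes mark a facial origin of the cells was not tested. Of 39 Hox genes, 29 were tested, and limma called 16 lower and 6 higher in IL-10-Fc and BF10, where 28.6% of all genes were called lower and 14.6% higher. The median log2 change of the Hox genes was -0.78. Hoxd13, a posterior gene of digits and genitalia, measured 8.07 to 11.04 FPKM in Ctrl-IgG and aCSF1R and 0 to 1.66 in IL-10-Fc and BF10 (log2 change -3.14, limma adjusted p = 3.22e-06). Like Alx1, Hoxd13 entered the test only through Ctrl-IgG and aCSF1R libraries, so the filter fixed part of the Hox count. Hoxd10 measured 6.92 to 15.2 and 0.31 to 1.79 FPKM (log2 change -2.70, limma adjusted p = 2.50e-06). Hoxa5, a gene of the trunk and lung, had the opposite sign, with 2.82 to 5.16 FPKM on the first side and 45.5 to 79.5 on the second (log2 change 3.44, limma adjusted p = 4.11e-07). The libraries with the most Pax9, Dlx2 and Alx1 RNA were thus those with Hoxd13, Hoxd10 and Hoxa11.

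**Figure D4:**
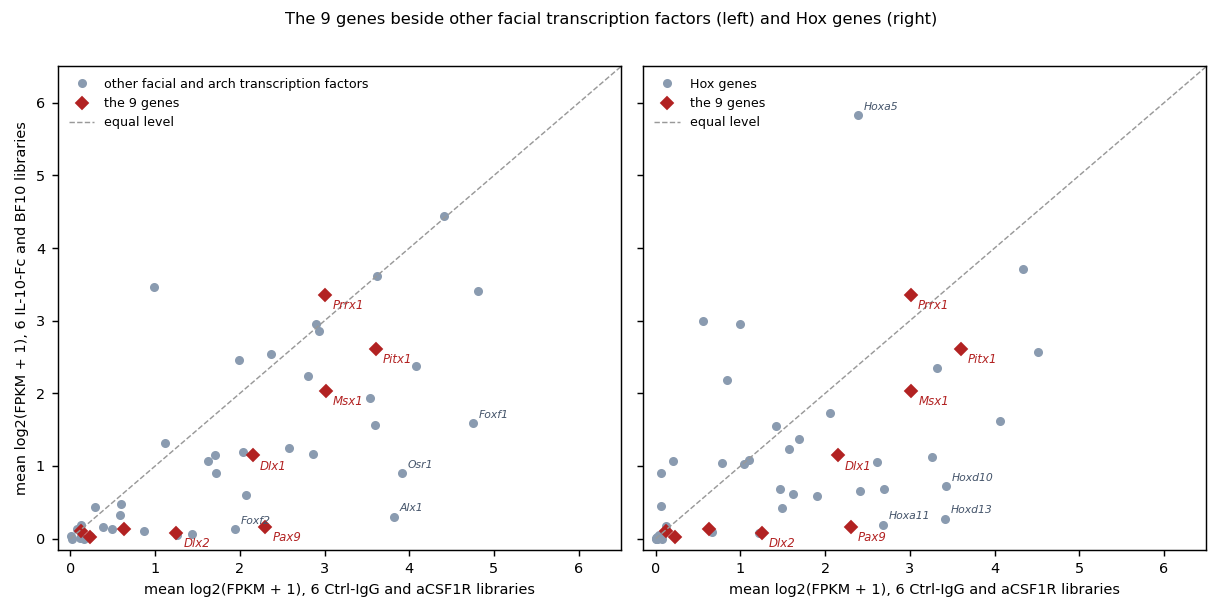
Mean log2(FPKM + 1) over the 6 IL-10-Fc and BF10 libraries (vertical axis) against that over the 6 Ctrl-IgG and aCSF1R libraries (horizontal axis) for the 9 genes (red diamonds) with 39 other facial transcription factors (left) or 39 Hox genes (right, grey-blue points); the dashed line is equal level. Pax9 and Dlx2 lie along the horizontal axis with Foxf2 and Hoxa11, Prrx1 lies just above the line, and Hoxa5 lies far above it.

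The signals that act with these factors in the arches did not share a direction. Over all genes, 28.6% were called lower and 14.6% higher in this contrast, and the receptor counts below lie near these shares. As in the other lists, some genes, Bmp7 among them, passed the filter only through the side where they were high. Of 11 ligands, 5 were tested and 1 was called higher, the BMP ligand Bmp7 (0.07 to 1.26 FPKM in Ctrl-IgG and aCSF1R, 9.35 to 30.0 in IL-10-Fc and BF10, log2 change 3.68, limma adjusted p = 4.47e-06). Of 8 receptors, 7 were tested, with 2 called lower (Fgfr1 at -2.91 and the hedgehog receptor Ptch1 at -1.56) and 1 higher (Fgfr2 at 1.64). Of 7 inhibitors, 4 were tested and 3 called higher, among them Smad7 (1.44) and Smad6 (1.20), which restrain BMP signals. Of 8 target genes, all were tested, with 2 called lower and 2 higher, led by the FGF target Spry1 (2.66), the hedgehog target Gli1 (-2.16) and the BMP target Id3 (1.21). The inhibitors had a median log2 change of 1.23, the ligands 0.46, the receptors -0.21 and the targets -0.14.

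Of 14 bone and tooth matrix genes, 6 were tested, with 1 called lower and 2 higher, where 28.6% of all genes were called lower and 14.6% higher. Dmp1 measured 0.02 to 0.16 FPKM in Ctrl-IgG and aCSF1R and 2.02 to 17.96 in IL-10-Fc and BF10 (log2 change 2.94, limma adjusted p = 9.75e-05). Ibsp, a bone sialoprotein gene, was listed at 0 in the first 6 libraries and measured 2.82 to 7.72 FPKM in the second (log2 change 2.58, limma adjusted p = 2.04e-06). Dmp1 and Ibsp entered the test only through IL-10-Fc and BF10 libraries, so the filter fixed part of this count. Phex fell by 1.79 (limma adjusted p = 7.54e-05) and measured 7.63 to 12 FPKM on the first side and 1.10 to 3.61 on the second.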

How the data were processed

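Total RNA of tumours from 12 mouse samples was sequenced from stranded mRNA libraries on an Illumina instrument. The authors deposited FPKM values for 55401 genes, given with 2 decimals. The reported fits applied no scaling between libraries beyond the scaling to library size that FPKM include. The study's methods describe scaling reads to a fixed number per sample and a log2 transformation. The submitters' processing notes name STAR 2.7.5a, RSEM 1.3.3, DESeq2 1.30.0 and mouse GRCm38 (mm10). The deposited DESeq2 tables of 4 comparisons hold the authors' own fold changes and p-values and were not used. FPKM carry no counts, so the depth behind single values is unknown and no count model was fitted.

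Groups were taken from the treatment in the labels, and replicate numbers from sample order. Genes that reached 1 FPKM in 3 libraries or more (15813 genes) were tested on log2(FPKM + 1), so fold changes of low genes are understated. limma 3.58.1 in R 4.3.3 (lmFit, contrasts.fit and eBayes with a trend) fitted all 12 libraries without covariates. P-values were two-sided and adjusted by Benjamini-Hochberg over all genes tested. Calls needed both an adjusted p under 0.05 and at least a 1.5-fold change. The model was tested first on simulated data with known changes planted in BF10. These were larger than the changes of most tested members, so the test does not bear on their calls. The contrasts were the 6 pairs of groups, the mean of IL-10-Fc and BF10 against the mean of Ctrl-IgG and aCSF1R, and BF10 - IL-10-Fc - aCSF1R + Ctrl-IgG.

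The members, lists and tests were chosen with earlier results of these data known. Named genes were the 9 members, their relatives and antisense partners, the 3 called genes of each signalling, transcription factor, matrix or Hox list with the largest absolute log2 change across the sides, and the 3 genes with the highest Pearson r to each tested member, without predicted genes, pseudogenes and immunoglobulin or T cell receptor segments. Marker genes, sex-linked genes and H2-Ea served as checks of the libraries, and genes shown for BF10 replicate 3 were chosen after their values were seen. Some list genes that the rule would name are not reported here. Positions came from GENCODE M21 (55141 of 55401 identifiers matched, 99.5%) and promoter sequences from RefSeq. Alternatives changed the pseudocount (0.1), the filter, the scaling (TPM, median-of-ratios, quantile), the samples fitted, a covariate from the numbering of the sample titles, and the libraries left out.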

Additional observations from a re-analysis of the deposited data

Results flagged for a closer look

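Dixon's ratio, the gap between an extreme library and its nearest neighbour over the whole range, was computed for the 18 sets of 6 libraries given by the 9 genes and the 2 sides. The treatment groups of 3 libraries are too small for it. It passed the 95% limit in 4 sets, where chance flags about 1 in 20. BF10 replicate 3 was far above the other IL-10-Fc and BF10 libraries for Dlx2 (0.32 FPKM, ratio 0.938) and for Pax9 (0.77 FPKM, ratio 0.935). Ctrl-IgG replicate 2 was far below the other Ctrl-IgG and aCSF1R libraries for Pax9 (1.40 FPKM, ratio 0.711). Ctrl-IgG replicate 3 was far above them for Msx2 (0.42 FPKM, ratio 0.810).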

How the results depend on the processing

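The number of members called stayed within 1.5 times the reported one in 119 of 124 alternatives over the 8 contrasts. The settings chosen after seeing the data are counted across the sides only. Of the 119, 14 each for aCSF1R against Ctrl-IgG and BF10 against IL-10-Fc and 19 for the departure from the sum had 0 calls. Almost no gene was called in these contrasts, so this agreement says little. The rule compares numbers, so a lost call and a gained one can cancel. The exceptions were 2 calls across the sides without the 3 keratinocyte-rich libraries (5 with all libraries), 6 for BF10 against Ctrl-IgG (2) and 6 for BF10 against aCSF1R (3) without the 4 libraries of highest FPKM sum, and, with the compared groups fitted alone, 2 for IL-10-Fc against Ctrl-IgG (4) and 5 for BF10 against aCSF1R (3). Without the keratinocyte-rich libraries, BF10 against aCSF1R had 0 calls. The cause of these changes was not tested, and all of these fits use fewer libraries. Leaving out each library in turn gave 4 to 5 calls across the sides, 2 to 3 for BF10 against Ctrl-IgG, 3 to 5 for IL-10-Fc against Ctrl-IgG, 2 to 3 for BF10 against aCSF1R, 4 to 5 for IL-10-Fc against aCSF1R, and 0 to 0 for BF10 against IL-10-Fc, for aCSF1R against Ctrl-IgG and for the departure from the sum. In these fits 23.8% to 37.2% of all genes were called lower across the sides. The shares were 8.51% to 12.2% for BF10 and 15.1% to 37.6% for IL-10-Fc, each against Ctrl-IgG. Against aCSF1R they were 8.61% to 12.8% for BF10 and 18.1% to 45.1% for IL-10-Fc.

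Across the sides no log2 change of a tested member reversed in 21 alternatives. Pax9 and Dlx2 were called in all of them, Msx1 and Pitx1 in 20 and Dlx1 in 7, and Prrx1 was called higher in 4, the last without BF10 replicate 3 and the 4 libraries of highest FPKM sum (0.90). This setting and the one without keratinocyte-rich libraries were chosen after seeing the data. The former keeps only replicate 3 of IL-10-Fc and replicate 2 of BF10. Dropping the filter raised the genes tested to 36540 and ended the Dlx1 call (adjusted p = 0.0865 in limma), as did TPM scaling (adjusted p = 0.0656). Fits with the compared groups alone were not made for contrasts that use all groups. No paired analysis was possible because the replicate numbers follow sample order and any 2 groups share at most 1 first title number.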
